A study of Drosophila melanogaster with 2 samples.

Results

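The regions described here are the intronic binding summits of Tailless in the early Drosophila embryo. They numbered 1097 of the 4045 summits in the authors' thresholded list, or 27.1% (exact binomial 95% interval 25.8 to 28.5%). A summit, the point of highest enrichment inside a peak, was chosen when it lay over 500 bp and up to 10 kb away from the start of transcription (TSS) of the closest protein-coding gene, inside a gene body and in no exon. Signal played no part in this choice beyond the authors' own threshold. Bases that meet this rule made up 23.5% of the sequence, close to the share of summits. The density was 34.8 summits per megabase of such bases, against 28.8 in all other sequence. It was higher for intergenic summits at the same distances (37.9) and within 500 bp of a TSS (99.1). It was lower for exonic (6.53) and more remote (13.4) summits. These densities were not tested. The experiment was chromatin immunoprecipitation followed by sequencing (ChIP-seq). GFP was the target of the antibody, and whole embryos aged 0 to 4 h were used, males and females together. The embryos came from 1 transgenic line of strain 8T-GFP, which stably carries tll with GFP at its C terminus, so the tagged protein and not untagged Tailless was precipitated. There was 1 group with 2 biological replicates, numbered 1 and 3, and sonicated chromatin of 200 to 800 bp. Both replicate lists had been called against the same control alignment, and with no second condition every value below is a description of this line and age.

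Tailless is an orphan nuclear receptor that acts mainly as a transcriptional repressor. In the early embryo it is expressed at both poles under the control of the terminal receptor tyrosine kinase Torso, and it sets the limits of gap and pair-rule gene expression there; later it acts in the brain and in neural stem cells. Introns of Drosophila developmental genes often hold enhancers, and first introns are on average longer than later ones. Zelda, a zinc finger protein that opens chromatin at the start of zygotic transcription, binds the word CAGGTA, and Tailless itself binds the word AAGTCA.

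The windows of 50 bases to either side of 9 summits are printed as examples, picked by signal or by word. The first 8 are those of the highest signal after rib, CG45088 and shn, whose windows are not printed, and the window in Tlk, which encodes a protein kinase, was added because it holds GAGAGA, the word of GAGA factor. Sequences are from the Release 6 assembly (dm6), 5′ to 3′, and capitals mark the Tailless word AAGTCA, the Zelda word CAGGTA and the GAGA factor word GAGAGA on either strand.
CG45263 (chr3R:8467926-8468026, plus strand): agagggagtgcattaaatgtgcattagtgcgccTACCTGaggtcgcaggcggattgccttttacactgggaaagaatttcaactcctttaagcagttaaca
cnc (chr3R:23195890-23195990, plus strand): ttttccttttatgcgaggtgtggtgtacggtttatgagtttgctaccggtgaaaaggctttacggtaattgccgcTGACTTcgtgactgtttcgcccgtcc
Piezo (chr2L:8165986-8166086, plus strand): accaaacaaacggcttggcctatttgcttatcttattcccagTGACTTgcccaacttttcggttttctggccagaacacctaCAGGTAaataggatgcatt
abd-A (chr3R:16826376-16826476, plus strand): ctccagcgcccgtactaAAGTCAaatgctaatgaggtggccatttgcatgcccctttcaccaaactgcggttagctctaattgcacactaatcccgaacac
aop (chr2L:2165140-2165240, plus strand): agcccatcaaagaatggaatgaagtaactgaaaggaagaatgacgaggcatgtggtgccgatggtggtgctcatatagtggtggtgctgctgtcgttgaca
Antp (chr3R:6994696-6994796, plus strand): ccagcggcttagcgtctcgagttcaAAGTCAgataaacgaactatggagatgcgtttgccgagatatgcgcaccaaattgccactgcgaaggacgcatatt
dpp (chr2L:2456848-2456948, plus strand): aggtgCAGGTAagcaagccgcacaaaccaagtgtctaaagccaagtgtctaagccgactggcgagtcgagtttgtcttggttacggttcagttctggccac
Abd-B (chr3R:16936439-16936539, plus strand): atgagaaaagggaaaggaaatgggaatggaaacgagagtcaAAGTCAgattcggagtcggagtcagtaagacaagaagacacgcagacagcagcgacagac
Tlk (chrX:3778265-3778365, plus strand): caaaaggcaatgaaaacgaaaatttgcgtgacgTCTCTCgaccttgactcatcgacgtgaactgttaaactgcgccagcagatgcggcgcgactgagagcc
The windows in cnc, Piezo, abd-A, Antp and Abd-B hold the Tailless word, those in CG45263, Piezo and dpp the Zelda word, and the window in aop none of the words. Of all 1097 intronic summits, 13.3% held the Tailless word within 50 bp and 8.66% the Zelda word.

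The summit of highest signal lay in the first intron of rib (FBgn0003254), which encodes a transcription factor of tracheal and salivary gland tube formation. Its deposited pooled signal was 1780, with 875 in replicate 1 and 892 in replicate 3, and it stood 2130 bp from the nearest TSS, which is one of rib itself. The replicates were nearly equal there. The next, in the second intron of CG45088 at 9042 bp from a TSS, had 988 and 825. In CG45263 the values were 915 and 786, at 9641 bp from a TSS inside a first intron of 32731 bp. These 3 summits thus ranged over most of the distance that the rule allows. A summit in the seventh intron of cnc, a head gap gene for a bZIP transcription factor, reached 926 and 761. Piezo, which encodes a mechanosensitive ion channel, held a summit with 782 and 810 in its first intron.

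Genes of segment identity and signalling followed. The summit in abd-A had 778 in replicate 1 and 760 in replicate 3, that in Antp 796 and 726, and that in Abd-B 844 and 670, all of them Hox genes. In aop, which encodes the ETS-domain repressor Yan, the values were 805 and 761. The zinc finger gene shn, which acts in Dpp signalling, had 855 and 701, and dpp itself, the gene of a BMP ligand, had 868 and 680. The summit in hh, the Hedgehog ligand gene, had 752 and 748, and its nearest TSS belonged to CG31457. Replicate 1 was the higher in 21 of the 25 summits of highest signal, and rib, Piezo, srp and blot were the exceptions. All 25 lay among the 4045 strongest summits of both replicate lists, and 12 of them lay in first introns.

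The rest of these 25 were in Tsp, Stat92E, Akap200, Alh, Btk, srp, blot, ths, pdm2, bun, Kdm4B and CadN. Stat92E, the transcription factor gene of the JAK/STAT pathway, held 2 of them in a single interval, so both carry the same replicate values of 965 and 730. The GATA factor gene srp had 604 and 619, and ths, the gene of an FGF ligand, had 620 and 588. The POU factor gene pdm2 differed most between replicates among the 25, with 719 and 475. The lowest of the 25 pooled values was 1150, in CadN, the N-cadherin gene, where the replicates had 615 and 553.

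**Figure D1:**
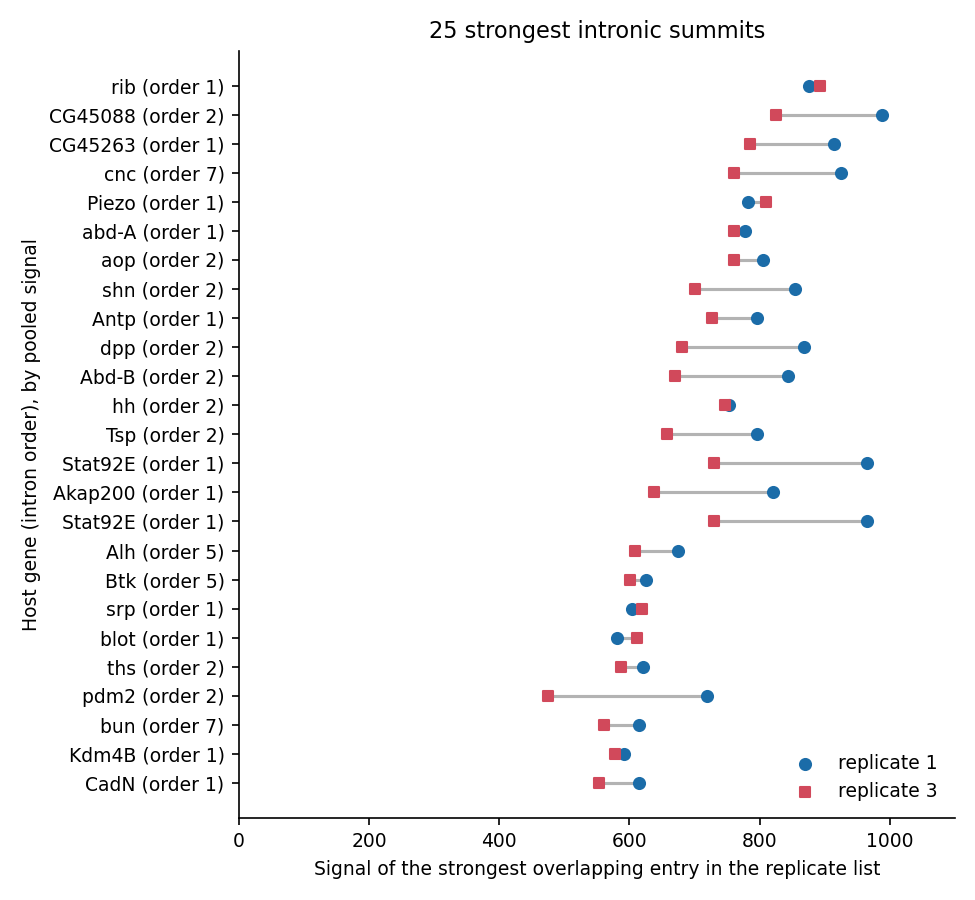
Signal of the 25 intronic summits of highest pooled signal, 1 line for each, in replicate 1 (circles) and replicate 3 (squares), with the host gene and the order of the intron. Replicate 1 lies to the right in 21 of 25 lines, and the widest gap is at pdm2 (719 against 475).

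Over all 1097 summits the pooled signal ran from 194.6 to 1780, with a median of 300 (299.6) and quartiles of 231 and 431. The lowest value is the lowest of the whole thresholded list. Median signal was 178 in replicate 1 and 164 in replicate 3, where each value is that of the strongest entry overlapping the summit's interval. Of the summits, 1095 were overlapped by an entry of both replicate lists, and the other two were in Pli, with 197 in replicate 1 alone, and in S, with 143 in replicate 3 alone. Among the 4045 strongest summits of each replicate, 958 (87.3%) recurred in replicate 1, 1015 (92.5%) in replicate 3 and 881 (80.3%) in both. Asking that at least 50% of the interval be overlapped lowered the last share to 70.6%. By bins of 20% from the strongest summits to the weakest, the share in both was 100, 99.5, 99.5, 68.0 and 34.2%. The thresholded list was itself derived from these replicates pooled, so such recurrence is not an independent check.

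Log10 signal correlated between replicates with Pearson's r = 0.856 and Spearman's rho = 0.814 over the 1095 summits, which share a control and of which 185 share an interval. Pairing each summit with the replicate entry of nearest summit, in place of the strongest overlapping entry, gave r = 0.727. Replicate 1 was higher at 680 summits and replicate 3 at 415, with a median ratio of 1.09. A difference of more than 2-fold was seen at 26 summits (2.37%), against 2.77% of all thresholded summits. The widest gap was at a second summit in rib, with 875 in replicate 1 and 168 in replicate 3, where the overlapping entry of replicate 1 was that of the stronger rib summit. The opposite gap was widest at a summit in the first intron of Antp, with 62.8 and 223. Its pooled signal was 444, and it stood at position 6992017, next to the end of its interval at 6992019. Whether the overlapping entry of replicate 1, at rank 9965, belongs to the same summit was not tested.

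**Figure D2:**
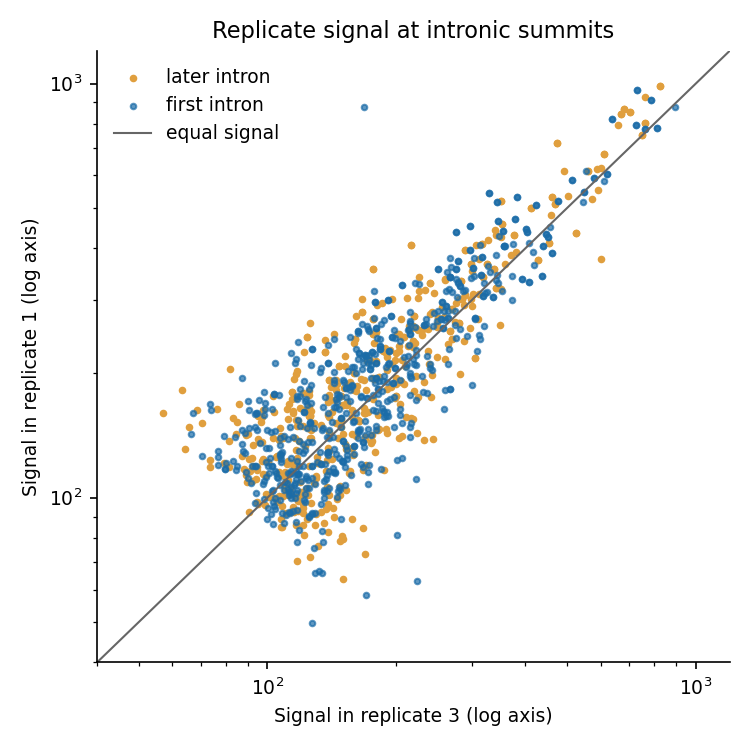
Signal at intronic summits present in both replicate lists, replicate 3 on the x axis and replicate 1 on the y axis, both logarithmic, with first introns in blue and later introns in orange. Points follow the line of equal signal, with r = 0.856 on the log10 scale, and the point farthest above it is the rib summit with 875 and 168.

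First introns held 606 of the 1097 summits, or 55.2% (52.2 to 58.2%). Of all bases that meet the same rule, 41.7% were in first introns. Per megabase (Mb) of such sequence the count was 46.1 in first introns, 36.1 in second introns, 22.4 in introns of order 3, 18.8 at order 4 and 16.0 at order 5 or higher. The density thus fell at each step. Second introns held 304 summits (27.7% of summits and 26.7% of bases), and introns of order 5 or higher held 72 (6.56% of summits and 14.3% of bases). The first-intron share was 56.4% among the strongest summits of replicate 1 and also 56.4% in replicate 3. Order was read from the canonical transcript; taking the lowest order over all transcripts of the host gene gave 69.3%. Median pooled signal was 302 (302.5) in first introns, 295 in second introns, 281 at order 3, 343 at order 4 (36 summits) and 297 at order 5 or higher, with no steady course. These exact intervals reflect counting alone and take summits as independent, which neighbours are not.

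The introns were long, as were those of all sequence that meets the rule. Their median length, counted once per summit, was 10304 bp (quartiles 4707 and 22187 bp), beside a base-weighted median of 9342 bp for all sequence that meets the rule. Measured instead as the gap between exons of any transcript, the median was 7879 bp. The density of summits was 11.8 per Mb in introns of up to 1 kb, 33.5 per Mb from 1 to 2 kb and 45.0 per Mb from 5 to 10 kb, and it was 34.5 per Mb over 50 kb. Only the shortest class stood well below the others, in both replicates (10.2 and 12.5 per Mb). The longest intron with a summit was the fourth of bru3, an RNA-binding protein gene of the Bruno family, at 139347 bp; that summit had 163 in replicate 1 and 97.7 in replicate 3. The shortest was the second intron of Or85f, an odorant receptor gene, at 52 bp, where the summit had 183 and 190 and its nearest TSS was that of CG34117.

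Inside the introns, summits lay toward the 5′ end of the transcript. When each intron was cut into 4 equal parts, the part next to the splice donor held 33.4% of summits and 29.2% of eligible bases, and the part next to the acceptor 18.3% and 22.8%.

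**Figure D3:**
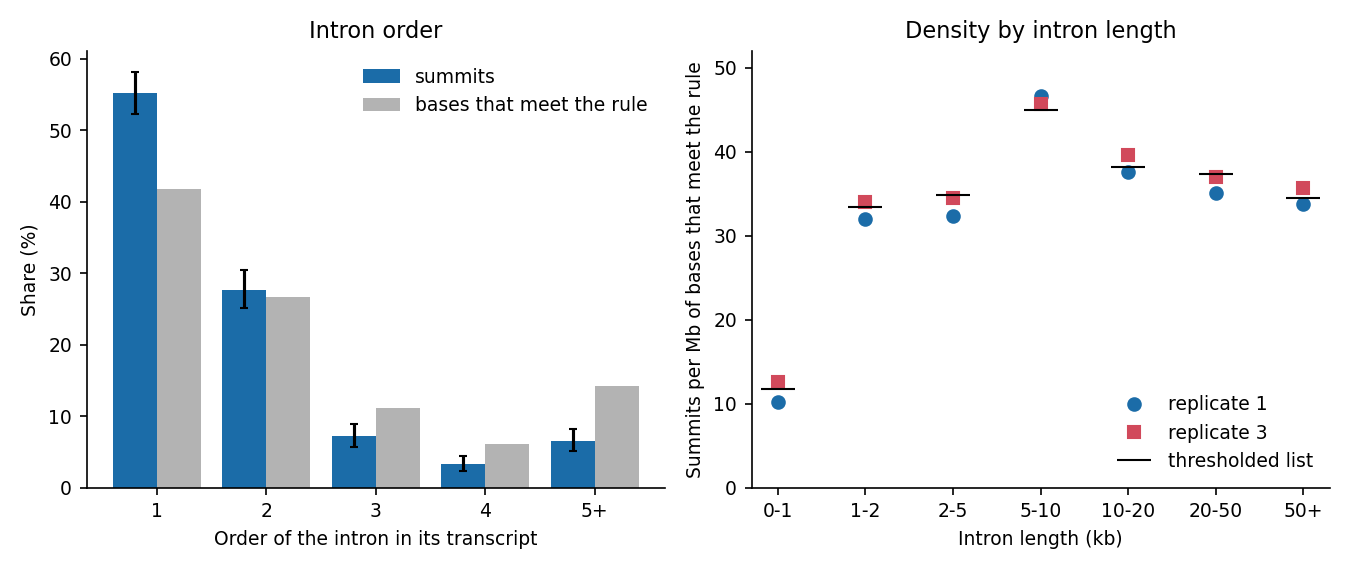
Left, share of intronic summits (blue, with exact 95% intervals) and of bases that meet the rule (grey) by order of the intron; right, summits per Mb of such bases by intron length in the thresholded list (lines) and among the strongest 4045 summits of each replicate (symbols). First introns hold 55.2% of summits and 41.7% of bases, and introns of up to 1 kb have 11.8 summits per Mb.

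The distance from summit to nearest TSS had a median of 2714 bp. Density fell with distance, from 44.4 per Mb between 500 and 1000 bp to 24.7 per Mb in the bin that ends at 10 kb. At the lower limit, summits in Sik3 and dikar lay just inside at 501 bp, with pooled signals of 198 and 367, and summits in Doc1 and FoxK just outside at 495 and 494 bp, with 1110 and 271. At the upper limit, summits in Psc (9942 bp, signal 308) and MESR3 (9897 bp, 365) were inside and summits in ab (10039 bp, 284.5) and kibra (10085 bp, 364) outside. In all, 337 intronic summits stood closer than the lower limit and 258 farther than the upper one.

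The nearest TSS belonged to the host gene for 909 summits (82.9%), against 69.9% of eligible bases. For 547 of these (60.2%) it was a start other than the most upstream one of the gene. Every distinct transcript start counted here, however close to the first, and the matching share of eligible bases was not computed. The other 188 summits were nearest to another gene, and for 124 of them that gene lies wholly inside the body of the host. An example is Kr, the gap gene, whose TSS was 1108 bp from a summit in the second intron of CG9380 with 436 in replicate 1 and 524 in replicate 3. Another is ind, a homeobox gene of the neuroectoderm, 1469 bp from a summit in Sytbeta with 377 and 312. A summit in the long noncoding RNA gene lncRNA:CR46454 was nearest to salm, which encodes a zinc finger protein, at 7432 bp, with 471 and 377. These 3 were chosen after their values were seen. Noncoding RNA genes hosted 17 summits in all.

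The summits fell in 595 host genes, of which 582 were protein-coding. These were 6.45% of the 9019 protein-coding genes that have any sequence meeting the rule. Hosts had more such sequence, with a median of 10028.5 bp against 453 bp for all genes with any. In 343 hosts there was 1 summit, and 754 summits (68.7%) lay in hosts with 2 or more. Of the 683 introns with a summit, 243 held 2 or more. Part of this comes from neighbouring summits, since 90 pairs shared an interval, at a median spacing of 203 bp and never closer than 199 bp.

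The most summits, 8 each, were in jing and brat. All 8 of jing, a zinc finger gene, were in a single first intron of 110416 bp; their pooled signal ran from 202 to 608, with 351 in replicate 1 and 263 in replicate 3 at the strongest. The nearest TSS of 3 of them was that of CG15233. In brat, which encodes a translational repressor of the TRIM-NHL family, 1 summit was in the first and 7 in the second intron, with pooled signals from 196 to 549 and 357 and 176 in the replicates at the strongest. That brat summit was one of the 26 that differed more than 2-fold between replicates.

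Ties at 7 summits followed in shn, Antp, hh, bbg, Ptp61F, rdx, tna and fz2. In shn the pooled signal ran from 206 to 1549 over a span of 7716 bp in 1 intron. The 7 of hh spanned 8847 bp of its first and second introns, from 275 (274.5) to 1480, and hh had the highest density of these genes, at 0.616 summits per kb of eligible sequence. None of the 7 windows in hh held AAGTCA, and the same was true of Ptp61F, rdx and tna. Since only 13.3% of all 1097 intronic summits held this word, counts of 7 are too small to set these genes apart. In Antp 4 summits were in the first and 3 in the second intron, from 211 to 1539. Those of bbg, a PDZ-domain gene, spanned 7983 bp of the fourth intron, 90418 bp long, from 322 to 789.

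Host genes were also read against 12 lists of genes, each by its density of summits per Mb of eligible sequence, with 34.8 for all such sequence. Pair-rule and segment polarity genes had 164 per Mb, Hox genes with their cofactors 163 and genes of the receptor tyrosine kinase pathway 162. In the first list 9 of the 22 genes with eligible sequence were hosts (40.9%, against 6.45% of all protein-coding genes), with 25 summits; in the second 9 of 11 with 27; in the third 9 of 17 with 30. Dorsoventral patterning genes had 128 per Mb (13 of 20 genes, 30 summits), Notch and Enhancer of split genes 126 (3 of 7, 11 summits) and gap and head gap genes 111 (4 of 12, 12 summits). The hosts of the gap list were cad, cnc, nub and pdm2 alone. The gap genes hb, Kr, kni, gt, tll and hkb, also on that list, were not hosts. The 6 lists of early patterning and signalling genes lay at the top. All lists were chosen with earlier results of these data known, so this order is a description and not independent evidence. Neuroblast and neural fate genes had 67.2 per Mb (3 of 9, 6 summits), axon guidance and cell adhesion genes 53.8 (19 of 34, 48 summits), nuclear receptor genes 43.6 (6 of 18, 12 summits) and eye and optic lobe genes 43.4 (5 of 12, 6 summits). Muscle structural genes had 10.4 per Mb (1 of 13 genes, or 7.69%, 1 summit) and neuronal ion channel genes 6.61 (2 of 18, or 11.1%, 2 summits). These last lists were thus below all eligible sequence by density, while their shares of hosts were not below 6.45%. Counts this small fix no order between neighbouring lists.

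Examples give the range within lists. Among pair-rule and segment polarity genes, the strongest summit of opa, a zinc finger pair-rule gene, had 585 in replicate 1 and 513 in replicate 3, and that of the T-box gene H15 had 418 and 327. Among dorsoventral genes, ush, a cofactor of GATA proteins, had 364 and 420, nearest to the TSS of cbt. The strongest summit of cic, which encodes an HMG-box repressor downstream of Torso, had 377 and 600, and was thus stronger in replicate 3. In nub, a POU factor gene of the gap list, the values were 430 and 376.

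The Notch list was led by neur, which encodes a ubiquitin ligase that acts on Delta, with 411 in replicate 1 and 407 in replicate 3. In it mam, a coactivator gene, had 191 and 205, and the receptor gene N had 241 and 143. Of the neural fate list, vnd had 350 and 330, grh 319 and 265, and pros 275 and 161, all of them transcription factor genes. Each value is that of the host's strongest summit.

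In the adhesion list the Slit receptor gene robo2 had 519 in replicate 1 and 478 in replicate 3, and kirre, an immunoglobulin-domain gene of myoblast fusion, had 411 and 455. Summits in nuclear receptor genes were weaker. EcR, the ecdysone receptor, had 308 and 290, Hr4 139 and 244, and Eip75B 163 and 157. In the eye list ey, a Pax6 homologue, had 219 and 190, Vsx1 205 and 174, and dac 163 and 122. The single muscle host, Zasp52, had 304 and 212, and its summit was nearest to the TSS of tun; the ion channel hosts KCNQ and nAChRalpha5 had 158 and 204, and 124 and 90.5, nearest to the TSSs of mlt and NimC4.

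**Figure D4:**
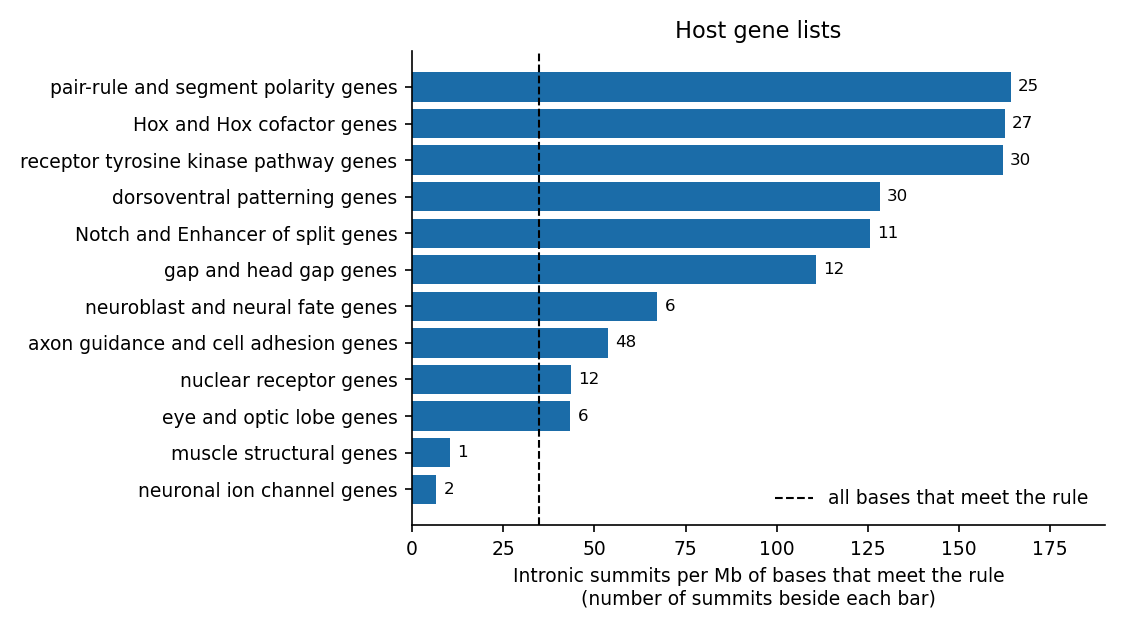
Intronic summits per Mb of bases that meet the rule in the genes of each list, with the number of summits beside each bar; the dashed line is the value for all such bases (34.8 per Mb). Bars run from 164 per Mb for pair-rule and segment polarity genes to 6.61 per Mb for neuronal ion channel genes, the latter from 2 summits.

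By chromosome, the density was 36.4 per Mb on 2L, 37.2 on 2R, 38.3 on 3L, 39.7 on 3R, 23.4 on X and 24.7 on chromosome 4. The X had 153 summits, and its density was 22.1 in replicate 1 and 24.4 in replicate 3. Chromosome 4 had 8 summits, in zfh2, ey, Sox102F (2), asRNA:CR43957, Pur-alpha and dati (2). The strongest of them was in the second intron of zfh2, a zinc finger homeodomain gene, with 312 in replicate 1 and 245 in replicate 3. The one in asRNA:CR43957 was nearest to ci, the Hedgehog pathway transcription factor gene, with 152 and 85.1.

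Against the most similar summits, intronic ones had intermediate signal. Median pooled signal was 300 (299.6) for intronic, 305 for intergenic summits at the same distances (706) and 266 (266.5) for summits within 500 bp of a TSS (1519). The same order was seen in replicate 1, with medians of 178, 183 and 156, and in replicate 3, with 164, 168.5 and 137. Of the intronic summits 82 (7.48% of 1097) were among the 300 strongest of the list, as were 84 intergenic ones (11.9% of 706) and 61 near a TSS (4.02% of 1519). No test was made, since summits are not replicates. Down the pooled list the intronic share stayed between 23.9% and 31.5%, from the strongest summits (28.7%) to the weakest (30.5%), while the share within 500 bp of a TSS went from 26.3% up to 45.4% and down to 18.1%.

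The sequence around the summits was compared with windows of the same size 500 bp away, for 14 words on both strands. The Tailless word AAGTCA was within 50 bp of 146 intronic summits (13.3%) and in 5.15% of flanking windows, a ratio of 2.58 (adjusted p = 2.59e-10, two-sided exact McNemar test against the flank at lower coordinates, Benjamini-Hochberg over the 14 words). Its longer form AAAGTCA, which contains it, was at 8.20% of summits with a ratio of 3.60 (adjusted p = 1.56e-08, same exact test). The Zelda word CAGGTA was at 95 summits (8.66%), a ratio of 3.11 (adjusted p = 1.03e-07, exact test). Higher shares were called for 4 words (28.6% of those tested), the last being AGGTCA, the core site of many nuclear receptors, at 4.56% with a ratio of 1.75 (adjusted p = 0.0267, exact test). Thus most intronic summits held no AAGTCA within 50 bp.

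A lower share was called for 1 word (7.14%), TTTTTT, the word of Hunchback, at 15.6% of summits against 23.2% of flanks, a ratio of 0.671 (adjusted p = 2.78e-05 by the same exact McNemar test). That call was lost with flanks 250 bp away (adjusted p = 0.140) or 1000 bp away (0.233) in the same exact test. The call for AGGTCA was lost in 5 alternatives, among them the strongest summits of replicate 3 alone (adjusted p = 0.0690, exact test). The other 9 words, those of GAGA factor, Snail, Twist, Bicoid, Caudal, Kruppel, BEAF-32, the proneural E-box and the promoter element DRE, had ratios from 0.716 to 1.51 and were not called. Over 15 alternatives 6 of these 9 were called at least once, GAGAGA in 6 and CAGGTG in 4, and the number called of all 14 words ran from 4 to 7, with 7 without replicate 3. Of these GAGAGA was at 8.11% of summits, with a ratio of 1.51 (adjusted p = 0.0918), and CAGGTG, the E-box of Snail, at 4.38% with a ratio of 1.41 (adjusted p = 0.0571, exact tests). The GC content was 43.7% at summits and 39.9% and 40.05% in the flanks, and its part in the word shares was not tested.

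The Tailless word was most frequent in the central 100 bp, with 14.9 words per 100 intronic summits, against 7.66 and 9.66 in the neighbouring bins to lower and higher coordinates. Where it was present within 50 bp, its median distance to the summit was 19 bp. The window itself bounds this distance, and no value for words placed at random was computed. The Zelda word was spread more widely, with 12.5 words per 100 summits in the bin 100 bp to lower coordinates, 9.85 in the centre and 9.02 in the bin 100 bp to higher coordinates. In the same bins intergenic summits had 12.2, 8.92 and 8.36, and promoter summits 6.85, 6.25 and 6.25. Bins follow genome coordinates and words were counted on both strands, so the side has no orientation. Both words occurred together at 8 summits. Of summits with AAGTCA 5.48% (2.40 to 10.5%) held CAGGTA, and of those without it 9.15% (7.39 to 11.2%).

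**Figure D5:**
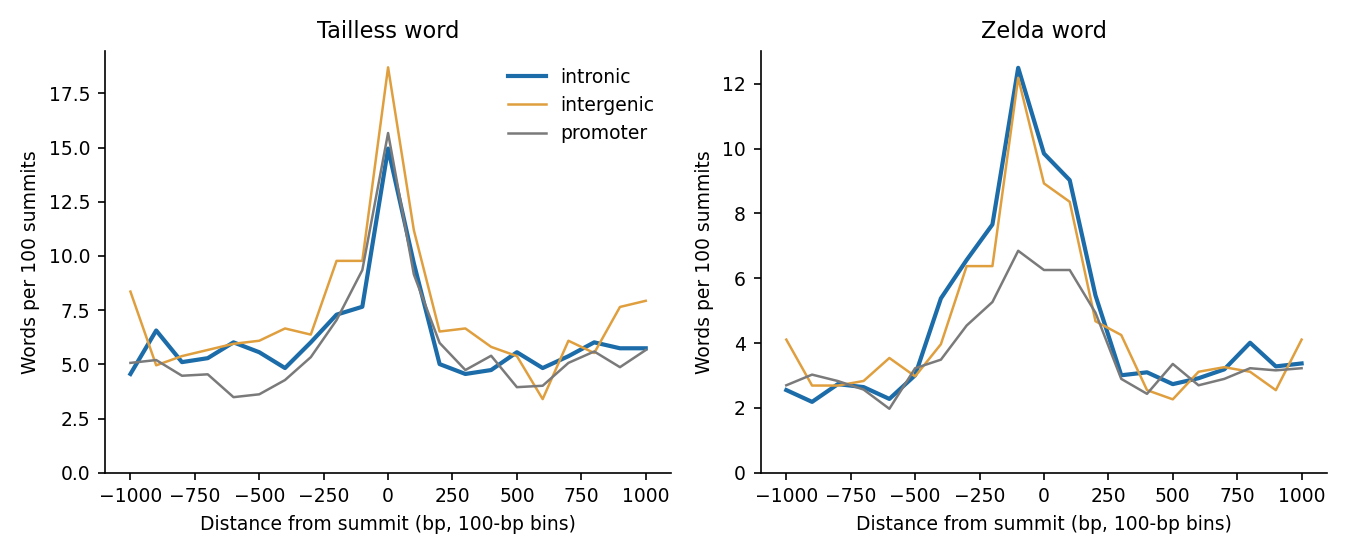
Words of Tailless (left) and Zelda (right) per 100 summits in 100-bp bins by distance from the summit, at intronic, intergenic and promoter summits. At intronic summits the Tailless word peaks in the central bin (14.9) and the Zelda word in the bin centred 100 bp to lower coordinates (12.5). The Zelda word peaks in that bin at intergenic (12.2) and promoter (6.85) summits too.

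The share with AAGTCA was 17.3% in the strongest 20% of intronic summits, then 13.2, 17.4, 7.76 and 11.0% in the following bins of 20%, and that with CAGGTA was 12.7, 6.82, 9.13, 8.22 and 6.39%. Median signal with AAGTCA was 184 in replicate 1 and 177 in replicate 3, and without it 177 and 163. By intron order the share with AAGTCA was 12.9% (10.3 to 15.8%) in first introns, 14.5% in second and 12.8% in later ones. Their intervals overlap.

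Intronic and intergenic summits did not differ past the threshold in any of the 14 words (0%), by two-sided Fisher exact tests adjusted over 28 tests. At unadjusted p under 0.05 there were 2. AAGTCA was at 13.3% of intronic and 16.9% of intergenic summits, a difference of -3.55 percentage points (95% interval -6.96 to -0.131, adjusted p = 0.106, exact test). TAATCC, the word of Bicoid, was at 4.47 and 7.08%, a difference of -2.62 points (adjusted p = 0.0682, exact test). With windows of 100 bp to either side both were called (adjusted p = 0.0414 each, exact tests), as was TTTTTT (0.00174), and TAATCC was also called in the strongest summits of replicate 1 alone (adjusted p = 0.0343). AAGTCA was also called with the strongest summit of each interval (adjusted p = 0.0452, exact test) and with an upper limit of 20 kb (0.0482).

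Against summits within 500 bp of a TSS, 6 words (42.9%) differed by the same Fisher exact test. CGATA, the word of the insulator protein BEAF-32, was at 9.66% of intronic and 20.5% of promoter summits (difference -10.8 points, adjusted p = 9.17e-13), and TATCGATA, the promoter element DRE, which overlaps it, at 0.182 and 4.21% (-4.03 points, adjusted p = 3.22e-12, exact tests). TTTTTT was lower at intronic summits (difference -5.48 points, adjusted p = 0.00356), as was CAGCTG, an E-box of proneural factors (-3.14 points, adjusted p = 0.00802, exact tests). CAGGTA was higher by 2.87 points, at 8.66 and 5.79% (adjusted p = 0.0239), and TTTATG, the word of Caudal, by 3.91 points (adjusted p = 0.0158, exact tests). The call for CAGGTA was lost in 3 alternatives, with adjusted p of the exact test from 0.0886 to 0.733; that for TTTTTT without replicate 3 (0.210), that for TTTATG in the stronger 50% of entries (0.728) and that for CAGCTG with windows of 25 bp (0.181). Uncalled words also gained a call, AGGTCA in 6 of 12 alternatives, CATATG in 5 and GAGAGA in 2, so that 9 words were called with the strongest summit of each interval or a lower limit of 250 bp. For AAGTCA the shares were 13.3 and 14.1% (difference -0.779 points, 95% interval -3.44 to 1.89, adjusted p = 0.755, exact test). Its share in flanking windows was 5.15% for intronic, 5.17% for intergenic and 3.49% for promoter summits. The ratio of summit to flanking share was thus lowest at intronic summits, with 2.58, 3.26 and 4.04 in that order. No test compared these ratios.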

How the data were processed

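ChIP-seq peak lists in dm6 coordinates were used: 1 for each of 2 replicates, 1 for both pooled (30000 entries each) and the thresholded list. The deposited signal is the authors' enrichment value per entry, on a scale not stated, and served to rank and describe entries. For the aligner, the peak caller and the irreproducible discovery rate cut-off, names and versions were not given in the sources used here. No read counts were used, so depth is unknown. The thresholded list equals the 4045 pooled entries of highest signal.

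Summits were placed on Ensembl release 115 (BDGP6.54) genes and Release 6 sequence with scipy 1.17.1, pandas 2.3.3 and numpy 2.4.6 under Python 3.11.15. A host is the gene whose body holds the summit, protein-coding genes first. Replicate values are those of the strongest entry overlapping the interval by at least 1 bp. Word tests were exact McNemar and Fisher tests with an adjusted p under 0.05 as threshold, checked on simulated data. Members and lists were chosen with earlier results of these data known. Named genes are hosts of the 25 strongest members, hosts with most members, up to 3 hosts per list, hosts of the longest and shortest intron, members nearest the distance limits and those on chromosome 4. Alternatives changed the list, limits, annotation, windows and flanks.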

Additional observations from a re-analysis of the deposited data

Results flagged for a closer look

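The intronic summits below the authors' threshold, 7342 in the pooled list, enter no word comparison above. AAGTCA was within 50 bp of 10.1% of them (exact 95% interval 9.44 to 10.8%) and in 4.60% of flanking windows, a ratio of 2.20 (adjusted p = 8.27e-34, two-sided exact McNemar test, Benjamini-Hochberg over 4 words, run after the data were seen). CAGGTA was at 3.68% of them with a ratio of 1.84 (adjusted p = 9.16e-09, same exact test). AGGTCA was at 3.24% with a ratio of 1.49 (adjusted p = 1.07e-06, same exact test). TTTTTT was at 17.5% with a ratio of 0.836 (adjusted p = 2.05e-08, same exact test). These weaker summits were listed here because a signal appeared in data that the word comparisons left out.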

How the results depend on the processing

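Of 278 recomputed values, 234 were rated the same. Tests had to keep their direction and side of the threshold, and shares, medians and r to lie within the interval of the reported value. Counts of words or genes only had to stay within a set fold range. By that rule 9 words called against promoter summits passed beside the reported 6. The share of the list that was intronic became 29.1% in the stronger 50% of entries, 30.1% and 22.9% with lower limits of 250 and 1000 bp, 20.3% and 31.8% with upper limits of 5 and 20 kb, and 29.2% with the TSSs of all genes. The first-intron share became 58.4% with the 5 kb limit and 69.3% with the lowest order over all transcripts. Median intron length became 11481 bp with the 1000 bp limit, 9136 and 11789 bp with 5 and 20 kb, 11522 bp with all TSSs and 7879 bp as the gap between exons. The stronger 50% of entries had 382 host genes and a median signal of 418. With 1 replicate left out, median signal ran from 148 to 166, on the replicates' own scale, and the words called against intergenic summits from 0 to 1. That count was also 1 with the strongest summit of each interval and with 20 kb, and 3 with windows of 100 bp. Recurrence in both replicates fell to 70.6% (r = 0.808) with an overlap of 50%, and r was 0.727 with the nearest summit. The difference in AAGTCA from promoter summits, not called, changed sign to 0.327 points without replicate 1 and 0.754 points with 5 kb, and was -0.215 points without replicate 3. Over the 14 words of each test, called words lost their call in 13 instances and uncalled ones gained it in 35; the cause was not tested. Words called against flanks numbered from 4 to 7 and against promoter summits from 4 to 9, the latter with the strongest summit of each interval and with the 250 bp limit. No paired analysis was possible because there was 1 group. Depth is unknown, lists of 30000 entries end by length, and with 2 replicates no variance between collections could be tested.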

Other observations

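Ranked by ratio of summit to flanking share, 2057 six-letter words were compared at the intronic summits, and the following were chosen after their values were seen, as descriptions without a test. The Zelda word CAGGTA ranked first. The word CGCGAC came next with a ratio of 2.87, followed by AGTCAA with 2.74 and then GAGTCA with 2.68, both of which share letters with the Tailless word, itself at rank 5. At the 7342 weaker intronic summits of the pooled list, the ratio of CGCGAC was 0.964 and that of the word GAGTCA was 1.49.

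The lowest ratios were those of 3 other words. The word AAGCTT was within 50 bp of 4 of 1097 intronic summits (0.365%) and in 2.37% of flanking windows. TCCCCA was at 0.729% of summits and 4.06% of flanks, while AAAGCT, which shares letters with AAGCTT in an overlap, was at 1.09% and 5.61%. The ratios were 0.154, 0.180 and 0.195 at intronic summits, 0.294, 0.235 and 0.278 at intergenic summits, and 0.643, 0.539 and 0.818 at summits within 500 bp of a TSS. At the weaker intronic summits they were 0.773, 0.713 and 0.715.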
